A study of Mus musculus with 35 samples.

Results

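The genes described here are 10 sensing receptors and signalling partners of macrophages, chosen by their symbols: the Toll-like receptors Tlr2, Tlr4, Tlr7 and Tlr13, the lipopolysaccharide co-receptors Cd14 and Ly96, the adaptor Myd88, and the C-type lectin receptors Clec4e, Clec4n and Clec7a. They are 10 of 35624 genes listed in the AZD3965 table, and 9 of 32285 genes in each of the matrices of the lactate and technique experiments, which have no row for Clec7a. Their levels were followed in 35 single cells labelled peritoneal macrophages, each sequenced as its own library.

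The cells came from the peritoneal cavity of 6-month-old male C57BL/6 mice and were cultured as adherent macrophages. The lactate experiment set 8 cells given 10 mM lactate for 72 h (lactate) against 8 cells without it (control). The AZD3965 experiment set 5 cells given 10 mM lactate with 300 nM AZD3965, an inhibitor of the lactate transporter MCT1 (lactate+AZD), against 5 cells given lactate alone. The study describes its lactate and AZD3965 cells as profiled by scMeT-seq, in which cytoplasm is drawn off for metabolomics before lysis, although their labels do not name the technique. In the technique comparison, 4 lactate-treated cells were labelled scMeT-seq, while 3 lactate-treated cells and 2 control cells went whole into SMART-seq2. Which animal or culture gave each cell is not stated, so a group counts as 1 sample, its cells were not tested as replicates, and the differences below have no replicate check. The letters T, W and F in the cell names of the AZD3965 experiment are not explained in the labels.

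Toll-like receptors recognise microbial lipoproteins and lipopolysaccharide at the cell surface and nucleic acids in endosomes, and most of them signal through the adaptor MyD88 to NF-kB. The lectins Mincle (Clec4e), Dectin-2 (Clec4n) and Dectin-1 (Clec7a) bind microbial glycolipids and cell wall sugars and signal through the kinase Syk. Resident peritoneal macrophages use both families to detect microbes that enter the cavity, and several members are themselves induced by inflammatory signals.

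The counts assigned to genes ranged from 269393 to 459859 per cell in the lactate experiment, from 58444 to 175450 in the AZD3965 experiment and from 494520 to 851417 in the technique comparison. Levels are given as CPM, the counts of a gene scaled to 1000000 counts in the cell, and a group's level as the same scaling of its summed counts. A comparison is given as the log2 ratio of the summed CPM with an exact conditional binomial 95% interval. The intervals cover counting error only, since the reads passed 20 PCR cycles without molecular identifiers. A gene was compared with 10 or more counts over both groups, and called higher or lower at 2-fold or more.

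The label was checked against markers. Of 18 macrophage markers, 16 to 18 had counts in every cell but 1, and they summed to between 34057 and 128144 CPM there. The exception was the control cell CTL32, with counts for 14 of the 18 at 3189 CPM, beside 13 of 14 fibroblast markers at 43031 CPM. Fibroblast markers also reached 10% or more of the macrophage markers in the lactate cell Lactic29 (7473 CPM), the control cell CTL30 (9243 CPM) and the lactate+AZD cell W14 (17205 CPM). Over the groups they ran from 0 to 7473 CPM in lactate cells and from 0 to 43031 CPM in control cells, and from 0 to 17205 CPM in lactate+AZD cells and from 0 to 6894 CPM in lactate-alone cells. In the technique comparison they stayed between 0 and 241 CPM. CTL32 also held most of the receptors at or near 0. The ratios of the members in the lactate and AZD3965 experiments are therefore given also without these 4 cells ("without the 4 cells", of which W14 is the one in the AZD3965 experiment). Those of other genes are given so only for some whose direction or call changed. The part of fibroblast RNA in any result was not tested.

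In the GENCODE M21 annotation of GRCm38, the build of the files (mm10), Clec4n (ENSMUSG00000023349, chr6:123229843-123247021, plus strand) and Clec4e (ENSMUSG00000030142, chr6:123281789-123289870, minus strand) lie 34767 bases apart, with Clec4d between them. Clec7a (ENSMUSG00000079293, chr6:129461591-129472779) is on the same chromosome and has the gene type polymorphic pseudogene there. Tlr2 (ENSMUSG00000027995) lies at chr3:83836272-83841767, Tlr4 (ENSMUSG00000039005) at chr4:66827584-66930284 and Ly96 (ENSMUSG00000025779) at chr1:16688051-16709611. Tlr7 (ENSMUSG00000044583, chrX:167304929-167330558) and Tlr13 (ENSMUSG00000033777, chrX:106143204-106160493) are on the X chromosome. Exons of Myd88 (ENSMUSG00000032508, chr9:119335934-119341411, minus strand) overlap those of Acaa1a on the other strand.

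The RefSeq promoter table (GRCm38.p6) held 5 of the 10 members, Tlr2, Tlr13, Myd88, Clec4e and Clec7a. Stretches upstream of every annotated start are shown for the member that differed most with lactate (Clec4e) and for both that differed 2-fold between techniques (Tlr2 and Tlr13). They lie at chr6:123289872-123290121 (minus strand), chr3:83841768-83841858 (minus strand) and chrX:106143025-106143203 (plus strand), and are written 5′ to 3′. Capitals mark matches, on either strand, to the core GAGGAA bound by PU.1, the TTGCNNAA pattern of C/EBP factors, the pattern of NF-kB (GGGA, any 4 bases, then CC) and the TGANTCA pattern of AP-1.
Clec4e upstream: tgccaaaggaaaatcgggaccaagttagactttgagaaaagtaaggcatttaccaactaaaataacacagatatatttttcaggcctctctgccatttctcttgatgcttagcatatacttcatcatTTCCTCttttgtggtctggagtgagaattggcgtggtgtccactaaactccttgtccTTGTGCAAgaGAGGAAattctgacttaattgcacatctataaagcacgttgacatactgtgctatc
Tlr2 upstream: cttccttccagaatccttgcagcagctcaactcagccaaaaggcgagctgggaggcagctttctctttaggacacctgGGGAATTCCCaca
Tlr13 upstream: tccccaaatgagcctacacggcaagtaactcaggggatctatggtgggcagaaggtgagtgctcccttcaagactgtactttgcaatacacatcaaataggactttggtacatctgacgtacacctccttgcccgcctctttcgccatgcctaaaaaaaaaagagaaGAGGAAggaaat

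The Clec4e stretch held GAGGAA at 2 places and TTGCNNAA at 1, the second GAGGAA within a few bases of the C/EBP pattern and not overlapping it. The Tlr2 stretch held the NF-kB pattern once, at a place that matches on both strands, and the Tlr13 stretch held GAGGAA once. In the 250 bases upstream of all 32851 RefSeq promoters, GAGGAA occurred in 23.3%, TTGCNNAA in 9.56%, the NF-kB pattern in 17.6% and TGANTCA in 6.75%. None of the 5 members had a TGANTCA match in this window. These matches describe the letters only.

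Per kilobase of exon, Cd14 stood highest of the members in 6 of the 7 groups. It reached 1447 CPM per kb in lactate cells and 892 CPM per kb in control cells, and Clec4n followed at 513 CPM per kb in lactate cells and 800 CPM per kb in control cells. Cd14 lay above Clec4n in 8 of 8 lactate cells but in 4 of 8 control cells, so the order of this pair was not kept between control cells. Clec4e came next in lactate cells at 226 CPM per kb, but in control cells it stood at 55.9 CPM per kb, below Tlr2 and Tlr13. Tlr4 was the lowest measured member in lactate cells at 25.7 CPM per kb, and Tlr7 in control cells at 17.2 CPM per kb. In lactate cells the neighbours Tlr13 and Tlr7 kept their order in only 4 of 8 cells, and in control cells Ly96 and Tlr7 in 4 of 8. Tlr13 and Clec4e, neighbours in the control order, kept theirs in 3 of 8 control cells. Whole lactate-treated cells were the exception to Cd14, with Clec4n first at 1357 CPM per kb and Cd14 second at 1312 CPM per kb, an order seen in 1 of 3 cells. In the AZD3965 experiment, Clec7a stood second in lactate+AZD cells at 460 CPM per kb and below Cd14 and Clec4n in lactate-alone cells at 228 CPM per kb.

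**Figure D1:**
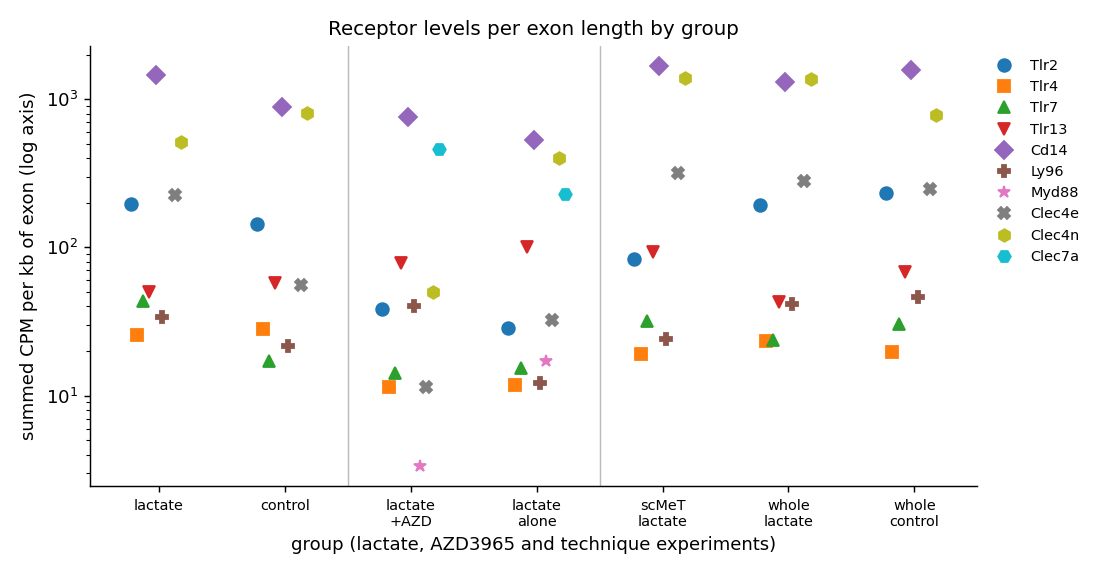
Summed CPM per kilobase of exon (log axis) of each member in the 7 groups, with vertical lines between the experiments. Cd14 lies at the top in every group but whole lactate-treated cells, where Clec4n reaches 1357 CPM per kb, and members with no count in a group are not drawn.

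The lactate experiment asked how macrophages differ after exposure to lactate. Among the 8 members measured, 2 were called higher, Clec4e at 4.05-fold and Tlr7 at 2.55-fold, and none lower. Of all 11506 genes compared, 15.1% were called higher and 22.0% lower. The median log2 ratio of the members was 0.55 (0.33 without the 4 cells) and that of all genes -0.09. Intervals lay above 0 for 5 members and below 0 for 2. Beside this, 10 of 12 fibroblast markers measured were lower in lactate cells. Without the 4 cells, 4 of the 12 were lower and 3 higher, Dcn among the higher at 2.10. The groups overlapped for every member, as they did for all genes compared.

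Clec4e, the receptor Mincle for mycobacterial and fungal glycolipids, had 276, 1077 and 1969 CPM as its lowest, median and highest value in lactate cells, against 2.77, 179 and 1008 CPM in control cells. All 8 lactate cells lay above the median of the control cells, and 4 lay above the highest control cell, CTL35. Over the groups Clec4e had 1124 CPM in lactate cells and 278 CPM in control cells (3418 and 817 counts), a log2 ratio of 2.02 (1.91 to 2.13). Without the 4 cells it was 1145 CPM in lactate and 362 CPM in control cells, a log2 ratio of 1.66 (1.55 to 1.78). Leaving out 1 cell at a time gave 1.83 to 2.59, the highest without CTL35.

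Clec4n, the receptor Dectin-2 for fungal mannans, had 76.1, 802 and 1624 CPM as lowest, median and highest in lactate cells, against 0, 1238 and 2797 CPM in control cells. Only 1 of 8 lactate cells lay above the control median, and the ranges overlapped over most of their width. Its summed level was 728 CPM in lactate cells and 1137 CPM in control cells, a log2 ratio of -0.64 (-0.72 to -0.56), and -0.94 (-1.02 to -0.86) without the 4 cells. The ratio lay within 2-fold, and it ran from -0.88 to -0.34 when 1 cell was left out. Clec4d, the lectin gene between Clec4n and Clec4e, had 1930 CPM in lactate cells and 1844 CPM in control cells, a log2 ratio of 0.07 (0.01 to 0.12) that turned to -0.19 without the 4 cells.

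Within a cell, the Clec4e count divided by the Clec4n count does not depend on the cell's total. This ratio, which was chosen after the values had been seen, had a lowest value of 0.546, a median of 1.54 and a highest value of 15.2 over the 8 lactate cells. In the 7 control cells with a Clec4n count it was 0.0925, 0.177 and 0.863. It was above 1 in 6 of 8 lactate cells and in 0 of 7 control cells. The ranges overlapped through the lactate cells Lactic34 (0.546) and Lactic30 (0.841) and the control cell CTL35 (0.863). The other lactate-treated groups were not alike in this ratio. It was above 1 in 1 of 5 lactate-alone cells (median 0.423) of the AZD3965 experiment. In the technique comparison it was above 1 in 1 of 4 scMeT-seq cells (median 0.275) and 2 of 3 whole lactate-treated cells (median 1.45).

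Cd14, which hands lipopolysaccharide to the Tlr4 complex, had 1983, 2414 and 3773 CPM as lowest, median and highest in lactate cells, against 5.54, 1389 and 4698 CPM in control cells. All 8 lactate cells lay above the control median and none above the highest control cell. The values were narrower in lactate cells, with a mean of 2547 ± 638 CPM (SD over 8 cells), against 1557 ± 1525 CPM in control cells (SD over 8 cells). This gave a log2 ratio of 0.70 (0.64 to 0.75), and 0.49 (0.43 to 0.54) without the 4 cells, within 2-fold. It ran from 0.51 without CTL32 to 1.12 without CTL35, so that leaving out CTL35 alone put Cd14 past 2-fold.

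Ly96 encodes MD-2, the lipopolysaccharide-binding partner of Tlr4. It had few counts, 106 in lactate and 65 in control cells. Its values ran from 4.88 to 82.6 CPM in lactate cells and from 0 to 52.9 CPM in control cells, at a log2 ratio of 0.66 (0.20 to 1.13), and 0.55 (0.07 to 1.05) without the 4 cells. Tlr4, the lipopolysaccharide receptor itself, had 43.0, 126 and 307 CPM as lowest, median and highest in lactate cells, against 26.0, 166 and 233 CPM in control cells. Its log2 ratio of -0.13 (-0.32 to 0.06) had an interval around 0, as had the -0.20 (-0.40 to 0.01) without the 4 cells. It was 1 of the few members with a sizeable level in CTL32, at 102 CPM.

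Tlr2, which senses bacterial lipoproteins, had 93.4, 505 and 1454 CPM as lowest, median and highest in lactate cells, against 2.77, 394 and 1297 CPM in control cells. The cells of both groups overlapped over most of their range. Summed over the groups, Tlr2 had a log2 ratio of 0.44 (0.33 to 0.54), and 0.17 (0.06 to 0.28) without the 4 cells.

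Of the endosomal receptors, Tlr7 was called higher and Tlr13 was within 2-fold. Tlr7, a receptor for single-stranded RNA, had 43.0, 154 and 381 CPM as lowest, median and highest in lactate cells, against 0, 80.8 and 123 CPM in control cells. Of the 8 lactate cells, 5 lay above the highest control cell and 2 at or below 45 CPM. Tlr7 thus had a log2 ratio of 1.35 (1.12 to 1.59), 1.11 (0.87 to 1.35) without the 4 cells, and 1.03 to 1.56 when 1 cell was left out. By the median of cells it lay within 2-fold. Tlr13, a receptor for bacterial ribosomal RNA, had 76.1, 196 and 502 CPM in lactate cells, against 0, 237 and 538 CPM in control cells. Its log2 ratio was -0.20 (-0.36 to -0.05), and -0.49 (-0.65 to -0.34) without the 4 cells, within 2-fold in both cases.

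**Figure D2:**
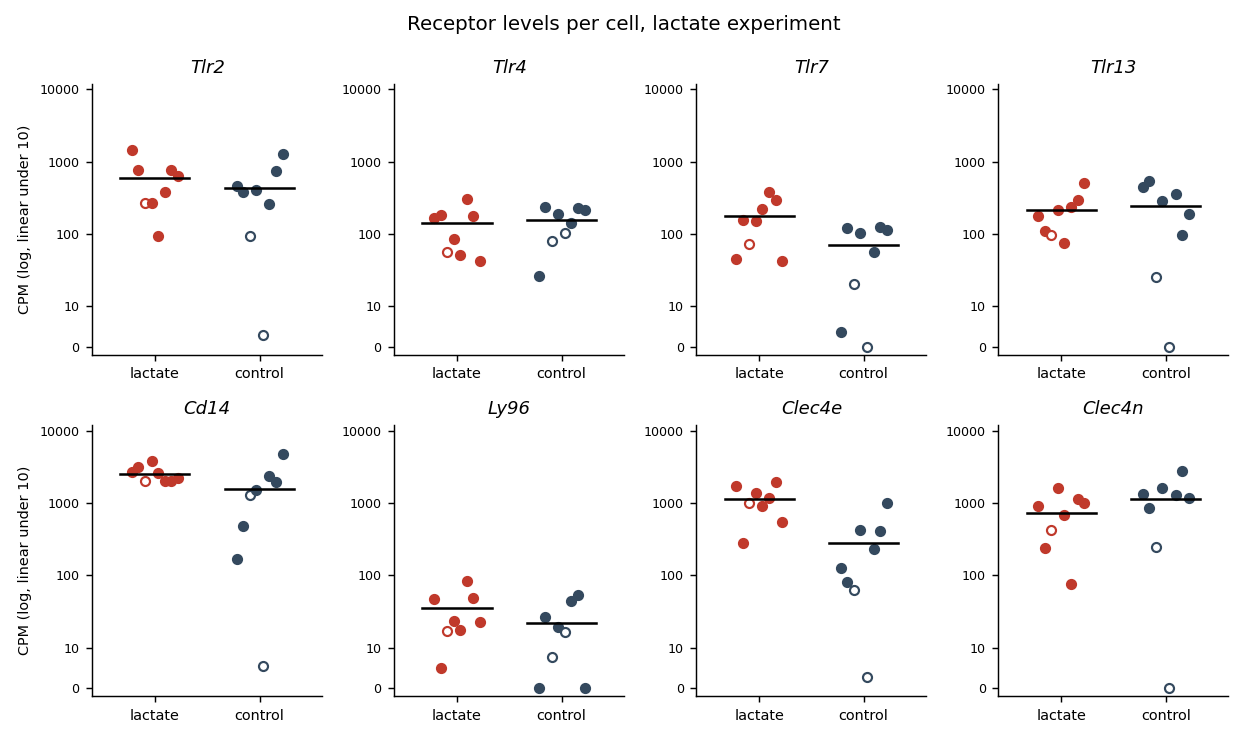
CPM of the 8 measured members in each lactate (left) and control (right) cell, on an axis that is logarithmic above 10 CPM and linear below. Each point is 1 cell, open points are cells with fibroblast markers at 10% or more of the macrophage markers, and lines are the summed CPM. For Clec4e the line stands at 1124 CPM in lactate and 278 CPM in control cells, while for Clec4n it stands at 728 and 1137 CPM in the same order.

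Myd88 was listed at 0 in all 25 cells of the lactate and technique matrices, and Clec7a had no row there. This is not read as absence of the transcripts. In all, 512 genes with counts in the AZD3965 table were listed at 0 in both matrices, B2m among them, a gene that nearly all nucleated cells express. Of 268 annotated genes at 0 with 10 or more counts in the AZD3965 table, 55.2% had exons that overlap another gene, against 37.2% of 7954 genes with counts in the matrices. For overlap on the same strand the shares were 23.5% and 8.27%. Exons of Myd88 overlap another gene, Acaa1a, on the other strand only. Acaa1a was itself listed at 0 in both matrices, with 145 counts in the AZD3965 table. The source of these zeros was not tested.

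Other genes of the pathways were called in both directions with lactate. The called genes named beside each count, where they are not the most abundant of their list, were picked after their values had been seen. Of the other Toll-like receptors, 4 of 8 were measured, with 1 called higher (Tlr6, 16.1 CPM in lactate and 7.14 CPM in control cells) and 1 lower (Tlr3). Without the 4 cells Tlr6 stood at 0.77. The most abundant, Tlr8, had 173 CPM in lactate and 144 CPM in control cells, a log2 ratio of 0.27 (0.08 to 0.45), and -0.02 without the 4 cells. Of 7 chaperones and co-receptors, 1 was called higher (Cd180, 1.16, or 0.81 without the 4 cells) and 1 lower (Lbp). Unc93b1, which carries the nucleic acid receptors to endosomes, had a log2 ratio of 0.47 (0.38 to 0.56), and the folding chaperone Hsp90b1 -0.68 (-0.81 to -0.55). The scavenger receptor Cd36 had -0.05 (-0.13 to 0.03).

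Of 3 TIR adaptors measured, Ticam1, the adaptor of Tlr3 and Tlr4, was called higher at 1.04 (0.42 to 1.68), and Tirap, the bridge to MyD88, lower at -2.70 (-3.67 to -1.85) on 13 counts in lactate and 82 in control cells. Of 14 kinases and ligases, 1 was called higher (Irak1, 1.45) and 2 lower (Traf6, -1.40, and Tab3, -2.09), with a list median of 0.58. Without the 4 cells Traf3 was called higher as well, at 1.395 in place of 0.88. Among the TIR adaptors so was Ticam2, at 2.32 in place of 0.72. The most abundant kinases and ligases, Irak2, Ikbke and Tbk1, had log2 ratios of 0.66, 0.59 and 0.57. Of 4 inhibitors, 1 was called higher, Tnfaip3, which encodes the NF-kB inhibitor A20, at 1.16 (0.81 to 1.52), or 0.84 without the 4 cells. Irak3, another inhibitor, had 0.88 (0.72 to 1.05) and Tollip -0.70 (-1.02 to -0.38). None of 5 transcription factors was called, and the most abundant, Irf5, had 0.87 (0.65 to 1.09).

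On the lectin side, 10 of 14 other C-type lectin receptors were measured, with none called higher and 2 lower (Clec9a on 18 counts and Mrc1 on 44). Without the 4 cells Clec1b was called lower too, at -1.17 in place of -0.95. Beside Clec4d, the most abundant were Clec4a1 at 0.60 (0.45 to 0.74) and Clec5a at -0.69 (-0.91 to -0.47). Of 9 signalling genes, 1 was called higher, the kinase gene Syk, with 337 CPM in lactate and 139 CPM in control cells, a log2 ratio of 1.27 (1.11 to 1.44), or 0.89 without the 4 cells. The adaptor genes Fcer1g, through which Mincle and Dectin-2 signal, and Tyrobp had log2 ratios of -0.02 and -0.04. Of 10 cytosolic sensors and adaptors, 2 were called higher (Aim2 and Naip5) and 2 lower (Nod1 and Ddx58). Without the 4 cells Nod1 stood at 0.27 in place of -1.25, and none of the 10 was called higher.

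The AZD3965 experiment asked what block of lactate transport adds to lactate. All 10 members were measured. Of these, 2 were called higher in lactate+AZD cells (Ly96 and Clec7a) and 3 lower (Myd88, Clec4e and Clec4n). Of all 8764 genes compared, 24.9% were called higher and 15.6% lower. The median log2 ratio of the members was -0.06 (-0.01 without the 4 cells) and that of all genes 0.17. The cells of the groups overlapped for every member, as for all but 0.377% of the genes.

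Clec4n differed most. Its level was 77.9 CPM in T10, 0 in W10, 212 CPM in W14, 0 in F8 and 0 in F9 among lactate+AZD cells, against 1332 CPM in T11, 211 CPM in T13, 367 CPM in W5, 111 CPM in W20 and 1072 CPM in F18 among lactate-alone cells. In all, 4 of the lactate+AZD cells lay below every lactate-alone cell, and W14, a cell with fibroblast markers, lay among them. The summed level was 70.5 CPM in lactate+AZD cells and 573 CPM in lactate-alone cells (41 and 413 counts), a log2 ratio of -3.02 (-3.52 to -2.56), and -4.52 (-5.53 to -3.66) without W14. Leaving out T11 in its turn gave -2.34. Clec4n had a count in 2 of 5 lactate+AZD cells and in 5 of 5 lactate-alone cells, and thinned to 58444 counts per cell the expected numbers rounded to the same 2 and 5.

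Clec4e had 35.4 CPM in T10, 0 in W10, 49.5 CPM in W14, 0 in F8 and 232 CPM in F9 among lactate+AZD cells. Among lactate-alone cells it had 119 CPM in T11, 11.4 CPM in T13, 165 CPM in W5, 197 CPM in W20 and 453 CPM in F18. Only F9 lay above the median of the lactate-alone cells, and it held 63.6% of the lactate+AZD counts. The log2 ratio was -1.50 (-2.11 to -0.93) on 33 and 116 counts, -1.45 without W14 and -2.72 without F9. Clec4d, between the 2 lectin genes, had 1779 CPM with AZD3965 and 1862 CPM in the lactate-alone cells, a log2 ratio of -0.07 (-0.18 to 0.05), and 0.28 without W14.

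Clec7a, the beta-glucan receptor Dectin-1, could be read only in this table. It had 418 CPM in T10, 3058 CPM in W10, 502 CPM in W14, 616 CPM in F8 and 896 CPM in F9 among lactate+AZD cells, against 867 CPM in T11, 724 CPM in T13, 547 CPM in W5, 475 CPM in W20 and 199 CPM in F18 among lactate-alone cells. The other lactate+AZD cells fell inside or just above the lactate-alone range, and W10 stood far above it with 65.0% of the counts of its group. Its log2 ratio of 1.01 (0.84 to 1.19) was -0.07 without W10, and it lay under 2-fold also without W5 (0.98), W20 (0.93) or F18 (0.88). The mean of cells (0.97), TMM (0.85) and DESeq2 size factors (0.84) also put it under 2-fold. So did the median of cells, at 616 CPM in lactate+AZD cells and 547 CPM in lactate-alone cells. Without W14 the log2 ratio was 1.26.

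Myd88 had 5 counts in lactate+AZD cells, 3 in W14 and 2 in F8, against 32 counts in lactate-alone cells, with 12.6 to 133 CPM in each of the 5. This gave a log2 ratio of -2.37 (-4.08 to -0.997), and -3.29 without W14. The counts of Myd88 are few, and reads of Acaa1a, whose exons overlap it, cannot be told apart from its own where strand is not recorded. Ly96 had 46.7 CPM in W10, 84.9 CPM in W14 and 85.6 CPM in F8, and 0 in T10 and F9, against 0 to 30.8 CPM in lactate-alone cells. Its 3 lactate+AZD cells with a count lay above every lactate-alone cell. On 24 and 9 counts its log2 ratio was 1.73 (0.57 to 3.01), 1.13 (-0.24 to 2.55) without W14 and 2.53 without W20.

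Cd14 had 616 to 1602 CPM in lactate+AZD cells and 735 to 1259 CPM in lactate-alone cells, with 3 lactate+AZD cells above and 1 below the range of the others. Its log2 ratio was 0.51 (0.35 to 0.66), and 0.47 without W14. Tlr7 had counts in T10 (63.7 CPM) and W10 (167 CPM) alone among the lactate+AZD cells, against 18.5 to 108 CPM in each of the 5 lactate-alone cells, with a log2 ratio of -0.09 (-0.78 to 0.58). That value rested on W10, which held 73.5% of the lactate+AZD counts, and was -1.58 without W10 and 0.31 without W14. Thinned to 58444 counts, Tlr7 was expected in 1.99 lactate+AZD cells and 4.69 lactate-alone cells. Tlr13 had -0.36 (-0.63 to -0.10), Tlr2 0.42 (-0.10 to 0.94) and Tlr4 -0.03 (-0.70 to 0.62), all within 2-fold. Without W14 these were -0.32, 0.59 and -0.52, and without W5 Tlr2 reached 1.04.

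**Figure D3:**
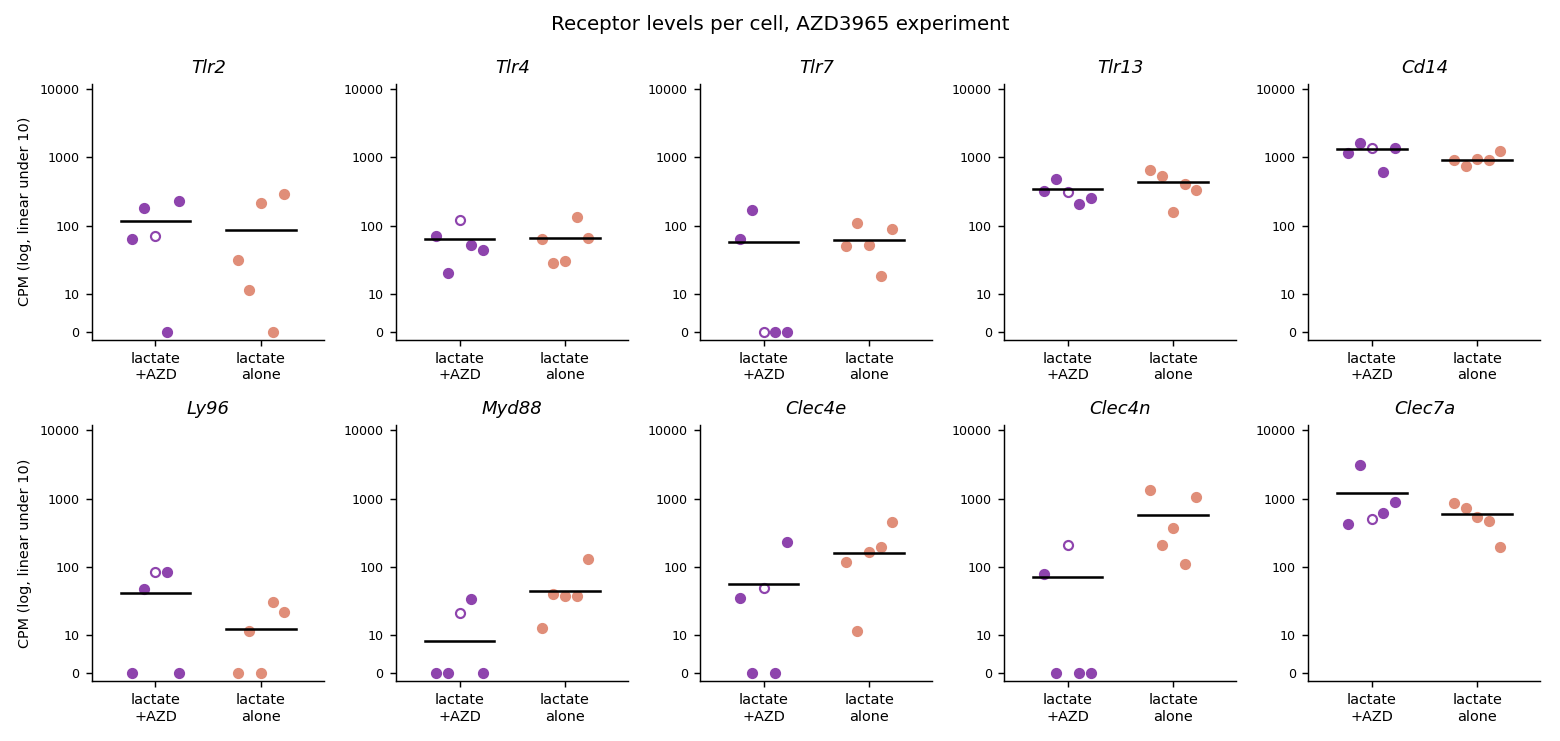
CPM of the 10 members in each lactate+AZD (left) and lactate-alone (right) cell, on an axis that is logarithmic above 10 CPM and linear below. Each point is 1 cell, the open point is W14, and lines are the summed CPM. Clec4n lies at 0 in 3 lactate+AZD cells and at 111 to 1332 CPM in the lactate-alone cells, and 1 cell at 3058 CPM stands apart for Clec7a.

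In the AZD3965 table the value 2 occurs 6215 times and the value 1 occurs 1914 times, a pattern whose source is not stated. With the counts halved, the intervals widened, to -3.75 to -2.36 for Clec4n, -2.39 to -0.69 for Clec4e, -5.09 to -0.44 for Myd88, 0.77 to 1.26 for Clec7a and 0.06 to 3.69 for Ly96, and none of the 5 held 0.

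Of 10 fibroblast markers measured, 6 were higher in lactate+AZD cells and 2 lower. Without W14 none was higher and 7 were lower, at a median log2 ratio of -1.85 in place of 2.08. The lactate-alone cell W5 stayed in, with 6894 CPM of these markers, 5.97% of its macrophage markers. The ratios without W14 thus still compare groups with unlike fibroblast markers. The small peritoneal macrophage markers Cd74, H2-Aa and H2-Eb1 and the B cell markers Cd79a and Cd79b were also higher, but mostly through W10, the cell that carried the Clec7a call. W10 held 768 CPM of small peritoneal macrophage markers, where the other lactate+AZD cells held 0 to 77.8 CPM and the lactate-alone cells 0 to 67.4 CPM, and 247 CPM of B cell markers, where W14 held 106 CPM and the other 8 cells none. Of 18 macrophage markers, 3 were lower, the complement genes C1qa, C1qb and C1qc, with C1qa at -0.66 without W14. The part of such cells in the receptor levels was not tested.

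Among the other pathway genes, 3 of 4 measured Toll-like receptors were called higher in lactate+AZD cells. These were Tlr1 and Tlr6, with 17 and 23 counts and none in lactate-alone cells, and Tlr3, with 12 counts and 2. The most abundant, Tlr8, had -0.16 (-0.60 to 0.27), and 0.13 without W14. Of 12 kinases and ligases, 4 were called higher (Map3k7, Chuk, Tbk1 and Ikbke, at 1.45 to 2.55, with Ikbke at 0.98 without W14) and 2 lower (Irak4, -1.71, and Tab2, -1.80). Ticam1 was called higher at 1.75 among 3 TIR adaptors, and Cnpy3, a receptor chaperone, at 1.43 among 6 chaperones and co-receptors. Without W14 the ligase gene Traf6 stood at 1.10 in place of 0.70, and the adaptor gene Tirap at 1.16 in place of 0.76. None of 3 inhibitors was called, and of 5 transcription factors Irf3 was higher at 1.48 and Nfkb1 lower at -1.46. Of 8 other C-type lectin receptors, Cd209a was called higher at 2.08 and both Clec4a2 and Clec4a3 lower, at -1.21 and -1.43, with Clec4a2 at -0.81 without W14. Cd209a had counts in 2 lactate+AZD cells and is also on the list of dendritic cell markers. In W10 that list stood at 387 CPM, through 1 gene only, Cd209a itself. The sum there is thus no separate sign of a dendritic cell. The list summed to 0 to 92.1 CPM in the other lactate+AZD cells and to 0 to 122 CPM in lactate-alone cells.

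Of 10 lectin signalling genes, none was called higher and 3 lower, Plcg2 at -3.08 (-4.34 to -2.04), Syk at -1.07 (-1.76 to -0.43) and Vav3 at -1.69. Vav3 rested on 3 and 12 counts, and its interval (-4.15 to 0.20) held 0. Without W14, Syk stood at -0.83, and Card9 was higher at 1.03. The signalling adaptors Fcer1g and Tyrobp, which were among the most abundant, stood at 0.03 and -0.12, and at 0.26 and 0.13 without W14. Of 8 cytosolic sensors and adaptors, 4 were called higher (Nod1, Naip5, and Ddx58 and Mavs with no count in lactate-alone cells) and 2 lower (Ripk2 and Aim2). Nod1 stood at -1.68 without W14, in place of 1.38.

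The technique comparison asked whether drawing off cytoplasm changes the transcriptome of lactate-treated cells. Of 8 members measured, 1 was called higher after scMeT-seq (Tlr13) and 1 lower (Tlr2). Of all 9723 genes compared, 21.7% were called higher and 20.6% lower, and the median log2 ratio was 0.11 over the members and 0.02 over all genes. Markers also differed: all 3 fibroblast markers measured (Dcn, Col1a2 and Pdgfrb) and 2 of 3 small peritoneal macrophage markers (Cd74 and H2-Eb1) were lower after scMeT-seq. Of 18 macrophage markers, 3 were higher (C1qa, C1qc and Mertk) and 15 lay within 2-fold. Their part in the receptor levels was not tested.

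Tlr2 had 284, 183, 328 and 208 CPM in the scMeT-seq cells Lactic13, Lactic14, Lactic16 and Lactic17, against 934, 402 and 473 CPM for the whole cells Lactic5, Lactic6 and Lactic7. It was the 1 member whose groups did not overlap, as was the case for 4.77% of all genes compared. Its log2 ratio was -1.20 (-1.35 to -1.05), and -0.80, within 2-fold, without Lactic5. By the median of cells, 246 CPM after scMeT-seq and 473 CPM in whole lactate-treated cells, Tlr2 also lay within 2-fold. The 2 whole control cells had 506 and 988 CPM, also above every scMeT-seq cell.

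Tlr13 had 501, 427, 174 and 483 CPM in the scMeT-seq cells in the same order, against 127, 274 and 142 CPM in whole cells with lactate. Lactic16 alone of the scMeT-seq cells lay inside the range of the whole cells. Over the groups this was a log2 ratio of 1.12 (0.93 to 1.30). Leaving out Lactic13, Lactic17, Lactic5 or Lactic7 brought it under 2-fold, with 0.94 the lowest value.

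Clec4e had 273, 110, 5371 and 558 CPM in the scMeT-seq cells, against 1161, 2071 and 898 CPM in whole cells with lactate. Lactic16 held 84.2% of the scMeT-seq counts, and the other 3 lay below every whole cell. The log2 ratio of 0.19 (0.12 to 0.26) therefore rested on Lactic16, and was -2.06 without it. Lactic16 was also the highest scMeT-seq cell for Cd14 (5864 CPM) and Ly96 (74.4 CPM), and the lowest for Tlr7 (23.2 CPM). Without Lactic16, Ly96 stood at -2.38 in place of -0.79 (-1.30 to -0.28). The remaining members lay within 2-fold, Clec4n at 0.02 (-0.04 to 0.09), Cd14 at 0.35 (0.30 to 0.41), Tlr7 at 0.41 (0.14 to 0.69) and Tlr4 at -0.30 (-0.56 to -0.03). Single cells turned the direction of each. Clec4n was -0.35 without Lactic5 and 0.97 without Lactic7, Cd14 -0.24 without Lactic16, Tlr7 -0.12 without Lactic7 and Tlr4 0.69 without Lactic5.

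The 3 whole lactate-treated cells were also set against the 2 whole control cells. The cells of this comparison are in part those of the technique comparison. None of 8 members was called higher and none lower, where 15.2% and 27.6% of 9732 genes were called, and the groups overlapped for all 8, as for all but 21.4% of genes. The median log2 ratio was -0.21 over the members and -0.20 over all genes. Clec4n had 471, 1427 and 3543 CPM in lactate-treated cells, against 786 and 1615 CPM in control cells, a log2 ratio of 0.79 (0.70 to 0.88) that was -0.16 without Lactic7 and 1.29 without CTL8. Clec4e had 1385 CPM in whole lactate-treated cells and 1234 CPM in whole control cells, a log2 ratio of 0.17 (0.08 to 0.26). The whole control cells, at 1223 and 1252 CPM, thus lay above the highest control cell of the lactate experiment at 1008 CPM. These were separate experiments that may differ in technique, and the difference between their effects was not tested. The Clec4e count over the Clec4n count was 2.46, 1.45 and 0.254 in the whole lactate-treated cells and 1.56 and 0.775 in the whole control cells, ranges that overlap. Tlr13 stood at -0.67 (-0.88 to -0.45), or -1.29 without CTL4, Tlr7 at -0.35, Tlr2 at -0.27, Cd14 at -0.26, Ly96 at -0.16 and Tlr4 at 0.25. Leaving out 1 cell turned the direction of 5 of these, with Tlr7 at 0.19 without Lactic7, Tlr2 at 0.19 and Cd14 at 0.45 without CTL8, Ly96 at 0.77 without CTL4 and Tlr4 at -0.74 without Lactic5. Clec4e in these cells was -0.28 without Lactic6.

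**Figure D4:**
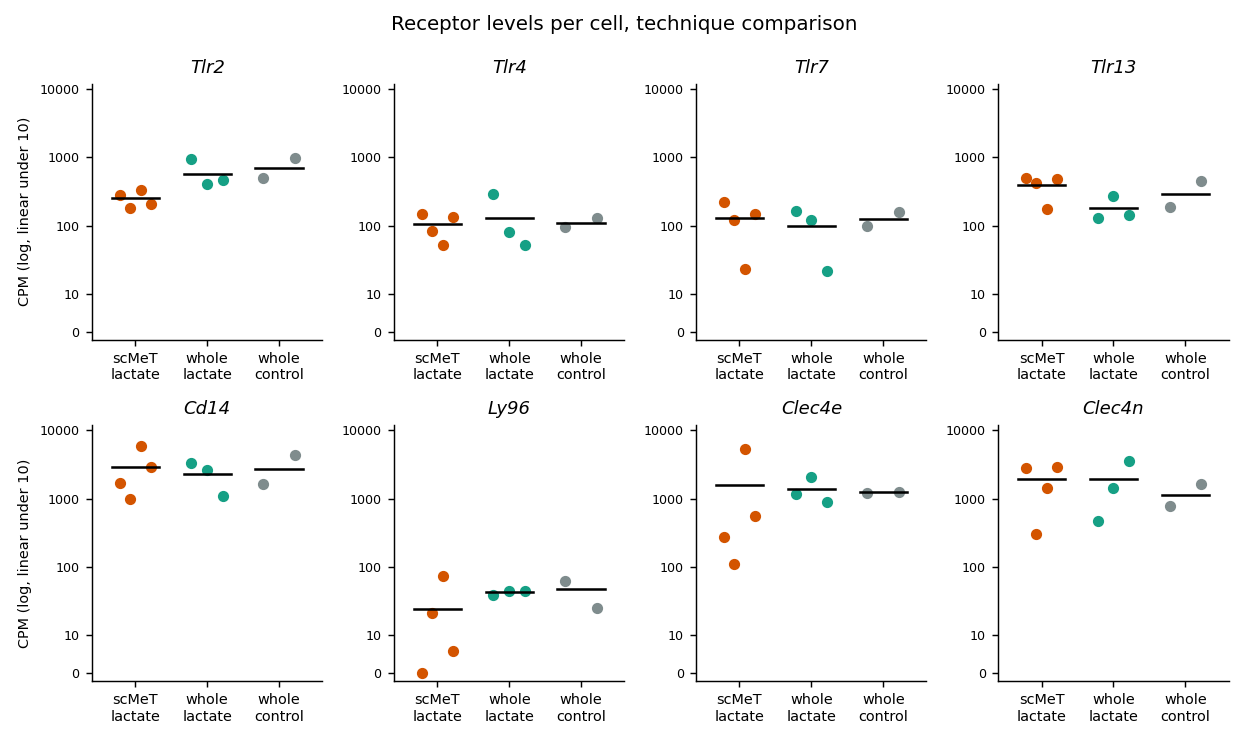
CPM of the 8 measured members in each scMeT-seq lactate (left), whole lactate (middle) and whole control (right) cell, on an axis that is logarithmic above 10 CPM and linear below. Each point is 1 cell and lines are the summed CPM. Tlr2 lies at 183 to 328 CPM in the scMeT-seq cells and at 402 to 934 CPM in whole cells with lactate, and 1 scMeT-seq cell reaches 5371 CPM for Clec4e.

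Of the other pathway genes, 4 of 5 transcription factors were called higher after scMeT-seq than in whole lactate-treated cells, Irf5 at 1.21, Irf7 at 1.79, Nfkb1 at 1.70 and Rela at 1.76. In whole cells, 2 of the same 5 were called lower with lactate, Irf7 at -1.56 and Nfkb1 at -1.40, on the same whole lactate-treated cells. Of 14 kinases and ligases, 2 were called higher after scMeT-seq and 5 lower, among them Ikbke at -1.46 and Tbk1 at -1.12. Past 4-fold with 50 or more counts were Tab3 (2.47), Tlr1 (2.30) and Tmem173 (3.58), which encodes STING, all higher after scMeT-seq. The lectin signalling genes kept close to the whole cells, with none of 9 higher and 1 lower (Bcl10, -1.005), and Syk stood at -0.10 (-0.28 to 0.09). In whole cells with lactate, Malt1, a partner of Bcl10 in lectin signalling, was called higher at 3.30 (2.58 to 4.10), with 206 counts in lactate-treated and 17 in control cells. The cytosolic sensor genes Nod1 (3.37) and Naip5 (2.37) were called higher as well, and Ripk2 (-2.44), which encodes the kinase downstream of Nod1, was called lower, as was Nod2 (-1.76).

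**Figure D5:**
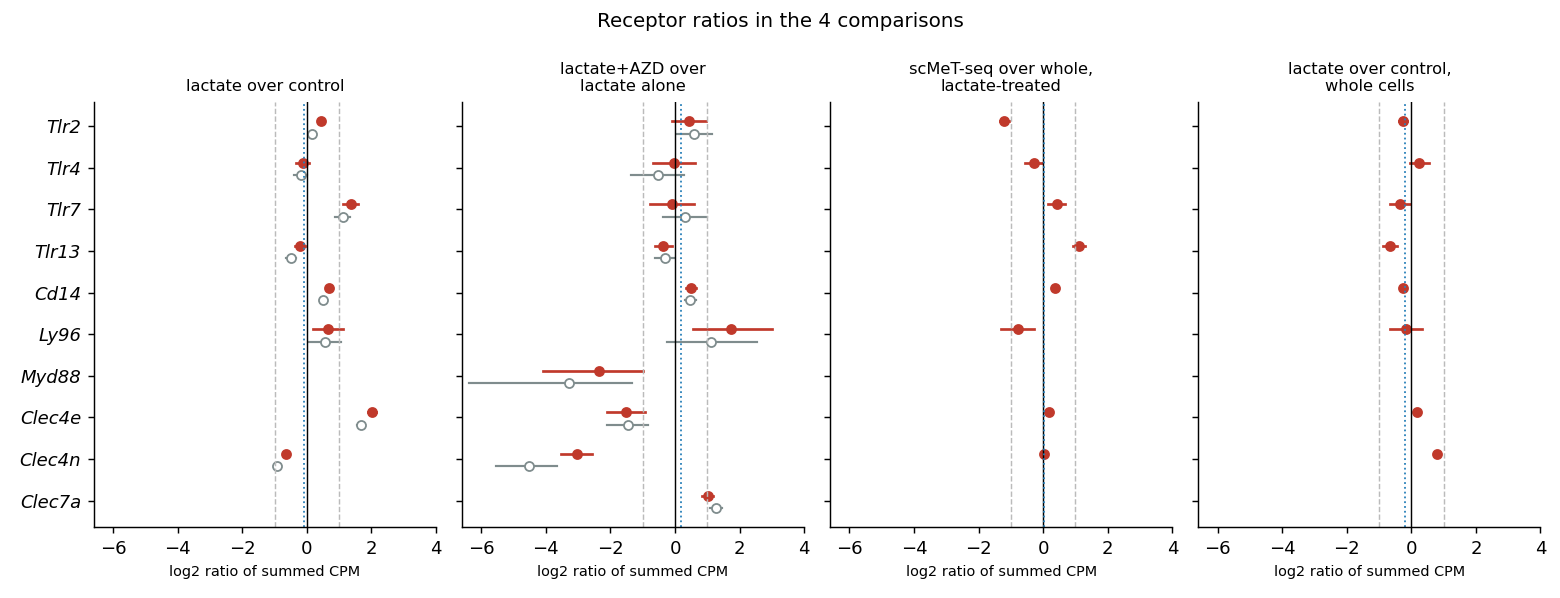
Log2 ratios of summed CPM of the members in the 4 comparisons, with 95% intervals for counting error. Red points use all cells and open grey points, in the lactate and AZD3965 experiments, leave out the 4 cells with fibroblast markers. Dashed lines mark 2-fold and dotted lines the median of all genes. Clec4e lies at 2.02 with lactate and at -1.50 with AZD3965, and Clec4n at -0.64 and -3.02 in the same comparisons.

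Over the 16 cells of the lactate experiment, the 28 pairs of the 8 measured members had a median Spearman rho of 0.24, with values from -0.03 to 0.65. The highest was that of Cd14 and Clec4e, a pair at -0.12 within the lactate cells and 0.81 within the control cells. Over the 13 cells with fibroblast markers under 10% of the macrophage markers the median was -0.01, with a range from -0.53 to 0.50. The points share the tables, the treatment groups and the cells' depth, and the values are descriptions. Among 7625 genes, those most like Cd14 over the 16 cells were Tnip3, an A20-binding inhibitor of NF-kB, at a rho of 0.85, Btg1 at 0.84 and H2-K1 at 0.84. Those most like Clec4n were Sh3bgrl at 0.86, Ass1 at 0.82 and Capg at 0.82, and those most like Clec4e were H2-Q7 and Arap1 at 0.80 and Sp110 at 0.78.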

How the data were processed

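Single-cell RNA libraries of 35 mouse macrophages were analysed as whole-number counts deposited by the authors, who trimmed reads with fastp 0.20.0, aligned them to mm10 with HISAT2 2.1.0 and counted them per gene with StringTie, without normalization. No comparison columns of the authors were used. Here scipy 1.17.1, pandas 2.3.3 and numpy 2.4.6, run under Python 3.11.15, gave CPM, ratios and intervals, and matplotlib 3.10.9 drew the plots. TMM factors (edgeR 4.0.16) and size factors (DESeq2 1.42.0, R 4.3.3) served as alternative scalings only. Where a group summed to 0, its ratio used 3 counts over the group as the limit. Doublets were not called. Each library is described as 1 picked cell, and whether any held material of a second cell was not tested.

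Members and gene lists were chosen with earlier results of these data known. Named genes are all members, the 3 most counted genes of each pathway list, genes 4-fold or more apart with 50 or more counts, and the 3 genes most like each of the 3 most counted members. The genes named beyond this rule were chosen after their values were seen. Alternatives were the mean and median of cells, other scalings, filters and folds, each cell left out in turn, and cells with fibroblast markers left out. Leaving out CTL32 alone was chosen after seeing the data. Metabolomes were not analysed here.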

Additional observations from a re-analysis of the deposited data

Results flagged for a closer look

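In 44 sets of a member and a group of 4 to 8 cells, 4 values of single cells, on the log2(CPM + 1) scale, stood further from the others than the critical value for the group's size, a gap that chance gives in about 1 of 20 sets. The values below are CPM. CTL32 had 2.77 CPM of Tlr2, where the other control cells had 93.5 to 1297 CPM, and 0 CPM of Clec4n, where they had 243 to 2797 CPM. This is the cell with 43031 CPM of fibroblast markers. F8, the lactate+AZD cell with the fewest counts (58444), had 0 CPM of Tlr2, where the others had 63.7 to 232 CPM. Lactic16 had 174 CPM of Tlr13, where the other scMeT-seq cells had 427 to 501 CPM.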

How the results depend on the processing

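With lactate, 2 members were called higher and 0 lower. The median of cells gave 1 higher, since Tlr7 fell under 2-fold, and a call at 1.5-fold gave 4 higher and 1 lower. With AZD3965, 2 were called higher. The mean of cells, TMM, DESeq2 size factors and a filter of 100 counts each gave 1, since Clec7a fell under 2-fold in all but the filter, which removed Ly96. By the median of cells the 2 higher members were Ly96 and Tlr2, Clec7a lay under 2-fold, and Tlr7 was called lower. After scMeT-seq, 1 was called higher and 1 lower. All 5 whole cells as comparison gave 0 higher. The median of cells gave 2 lower, Clec4e and Ly96, and put Tlr2 under 2-fold. A call at 1.5-fold gave 2 lower, Tlr2 and Ly96. In whole cells with lactate, 0 were called either way. DESeq2 size factors gave 1 higher, the median of cells 1 lower, and 1.5-fold 1 each way. Left out in turn, single cells gave 1 to 2 higher with AZD3965, 0 to 1 higher and 0 to 3 lower after scMeT-seq, and 0 to 1 higher and 0 to 1 lower in whole cells. Clec7a with AZD3965 ran from -0.0696 without W10 to 1.29 without T10, and the value without W10 was the 1 that reversed. Of the other values of single members under alternatives, 468 stayed inside the counting-error interval of the reported ratio and 165 lay outside it. TMM shifted all log2 ratios by 0.08 with lactate, -0.16 with AZD3965, 0.01 after scMeT-seq and 0.19 in whole cells. No paired analysis was possible because the results come from no test and nothing states that equal cell numbers mark a shared animal or culture. In the AZD3965 experiment, depth limits Tlr4, Tlr7, Ly96, Myd88, Clec4e and Clec4n, each with under 50 counts in 1 or both groups.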
